A study of Mus musculus with 7 samples.

Results

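The genes described here are 40 genes of DNA replication and mitosis, chosen by symbol from their known roles and found by Entrez identifier among the 27179 genes of each count table. Their messenger RNA was measured by RNA-seq in 7 lymphoma cell lines. The lines derive from male C57BL/6 mice with end-stage disease that carried the Eµ-Myc transgene, in which an immunoglobulin heavy chain enhancer drives Myc in the B cell lineage. The 3 wild-type lines had an intact Smchd1 gene. The 4 Smchd1 null lines were labelled as homozygous for a gene trap in Smchd1, whose product acts in chromatin to keep genes silent, and the study's methods name the allele MD1. All 7 lines thus shared the Myc transgene, the sex and the strain. Whether each line came from a separate mouse was not given in the sources used here, so p-values measure only the spread between these lines. The question was whether transcripts of the replication and division machinery differ between lines with and without Smchd1.

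Cells that prepare to copy their DNA place a ring of MCM proteins on each replication origin, a step called licensing, and later switch these rings on as helicases. E2F transcription factors raise the genes for licensing, for the polymerases and for nucleotide supply as cells enter S phase. A second wave of genes, for the mitotic cyclins, kinases, spindle motors and checkpoint, rises in G2 phase and mitosis and carries promoter elements bound by the DREAM and MuvB complexes. In bulk RNA, a larger share of cycling cells and more RNA per cycling cell cannot be told apart. Lymphomas driven by Myc are known for rapid division.

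Total counts ranged from 3626853 in wild-type replicate 1 to 7519549 in Smchd1 null replicate 4. Smchd1 itself was at 219 to 248 CPM (each count divided by the total of its library and scaled to 1 fixed size for all) in wild-type lines and at 22.6 to 28.7 CPM in Smchd1 null lines (exact permutation test, two-sided p = 0.02857, the smallest that 3 against 4 lines allow), so no line went against its label. Markers of B cells summed to between 1285 and 1820 CPM in wild-type lines and between 1891 and 2320 CPM in Smchd1 null replicates 1 to 3, but to 513 CPM in Smchd1 null replicate 4. Of the 8 B cell markers, none was at 0 in all 7 lines, although Ms4a1 reached at most 0.798 CPM outside Smchd1 null replicate 3, where it was at 12.8 CPM. The 6 T cell markers summed to at most 0.827 CPM in any line, and the 5 myeloid markers to between 2.76 and 12.2 CPM in wild-type and between 0.296 and 27.1 CPM in Smchd1 null lines. The 3 endothelial markers summed to at most 4.39 CPM and the 3 erythroid markers to at most 0.798 CPM. The 4 fibroblast markers summed to 10.2 CPM in wild-type replicate 1 and to at most 0.266 CPM elsewhere. At 0 in all 7 lines were 2 of the T cell markers and 1 in each of the other 4 lists. The part of these markers in the results below was not tested. Wild-type replicate 1 was the only library of batch 1 and the only single-end library. Wild-type replicates 2 and 3 were closely alike, with a biological coefficient of variation of 0.0692 between them against 0.290 to 0.623 for every other pair within a group, though they differed by more than counting noise (chi-square of 3.96 per gene). These libraries bear on the calls below, which are given with and without them.

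Promoter sequence was examined first, because the replication and the mitosis genes are known to be controlled through different elements. Of the 40 genes, 32 matched a window in the RefSeq promoter table (GRCm38.p6) of 250 bases before and 50 bases after an annotated start. No window was found for Gmnn, Mcm4, Gins1, Gins2, Pole, Ccne2, Ccna2 and Aurkb. Some annotated starts lie inside the gene. The windows of Cdc6 and E2f1 fall wholly within the gene, as does a window of Mcm7 and of E2f2, so the E2F match of Cdc6 counted below is inside the gene. For 25 of the 34 windows, bases 6 to 35 after the start were found in a known transcript of the gene. The stretches before the start are shown for Mcm6, Pcna and Kif11, the 3 genes called differentially expressed, and for Cdk1, a gene that was not called and whose window held all 3 kinds of motif searched for, as did a window of Mcm7. Each runs 5′ to 3′ in the direction of the gene. Capitals mark matches on either strand to an E2F motif (TTTCCCGC, TTTCGCGC, TTTGCCGC or TTTGGCGC), to the cell cycle genes homology region or CHR (TTTGAA or TTCGAA), or to the CCAAT box. The stretches lie at chr1:128359706-128359955 on the minus strand (Mcm6), chr2:132253181-132253430 on the minus strand (Pcna), chr19:37376132-37376381 on the plus strand (Kif11) and chr10:69352913-69353162 on the minus strand (Cdk1).
Mcm6: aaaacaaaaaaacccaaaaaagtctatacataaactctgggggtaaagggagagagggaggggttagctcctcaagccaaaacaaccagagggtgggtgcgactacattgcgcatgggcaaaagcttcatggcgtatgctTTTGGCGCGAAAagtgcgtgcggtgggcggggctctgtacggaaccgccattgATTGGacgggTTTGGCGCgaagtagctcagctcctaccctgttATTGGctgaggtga
Pcna: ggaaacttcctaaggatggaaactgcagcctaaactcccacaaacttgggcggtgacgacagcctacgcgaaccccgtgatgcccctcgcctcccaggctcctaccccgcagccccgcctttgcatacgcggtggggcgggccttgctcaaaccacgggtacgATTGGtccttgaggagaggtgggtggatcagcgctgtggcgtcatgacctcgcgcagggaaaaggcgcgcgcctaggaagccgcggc
Kif11: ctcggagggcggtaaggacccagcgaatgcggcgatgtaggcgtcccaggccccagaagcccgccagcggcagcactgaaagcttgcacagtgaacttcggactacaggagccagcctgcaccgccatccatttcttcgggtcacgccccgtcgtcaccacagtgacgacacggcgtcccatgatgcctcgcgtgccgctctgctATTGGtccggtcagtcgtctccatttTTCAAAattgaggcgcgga
Cdk1: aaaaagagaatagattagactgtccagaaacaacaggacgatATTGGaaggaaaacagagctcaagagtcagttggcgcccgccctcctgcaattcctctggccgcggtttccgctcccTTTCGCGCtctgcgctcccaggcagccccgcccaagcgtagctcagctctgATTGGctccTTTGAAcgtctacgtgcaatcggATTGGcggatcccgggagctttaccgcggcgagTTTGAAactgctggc

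The Mcm6 window held 3 matches to the E2F motif, of which a pair on opposite strands overlapped, and no CHR. The Pcna window held a CCAAT box but neither an E2F motif nor a CHR in these letters. The Kif11 window held 1 CHR and 1 CCAAT box close to the start. Among 16 windowed genes of licensing, DNA synthesis and nucleotide supply, 8 held an E2F motif and 2 held a CHR. Among 10 windowed genes for mitotic kinases, checkpoint, chromosomes and spindle, the counts were 0 and 8. Of all 27025 genes with a window, 2.6% held the E2F motif and 21.66% the CHR, and among the 9307 that passed the expression filter these shares were 4.94% and 16.59%. The CCAAT box, which can overlap the other motifs, was found in 25 of the 32 genes, against 41.06% of all genes with a window. Matches are a description of the letters in these windows and not evidence of binding.

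**Figure D1:**
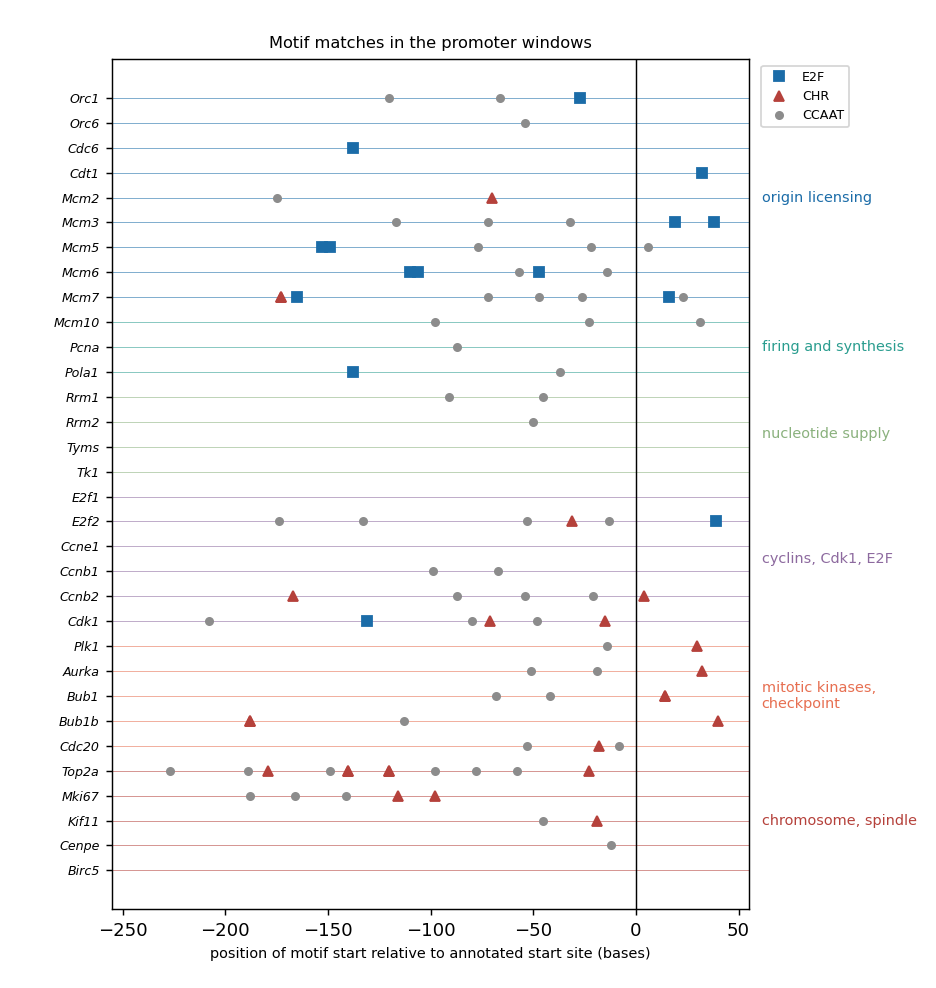
Start of each motif match, in bases from the annotated start site (line at 0), in the promoter windows of 32 genes. The E2F motif (squares) sits in 8 of 16 replication genes and in 0 of the 10 genes of the lower mitotic groups, where the CHR (triangles) sits in 8. Circles are CCAAT boxes, and the windows of Mcm7 and E2f2, which have more than 1 each, are drawn on 1 row.

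The replication and mitosis genes were expressed in every line, and only a few were called different between the groups. A gene without a call is not thereby shown to be unchanged. All 40 genes passed the filter of 0.5 CPM in 3 or more lines. Pcna rose, and Mcm6 and Kif11 fell, in Smchd1 null lines (voom with sample weights in limma, false discovery rate (FDR) under 0.05). The 3 called genes are 7.5% of 40, below the 11.9% called among all 12303 genes tested. Of these 12303, 5.06% were called higher and 6.85% lower. The median log2 fold change was 0.03 over the 40 genes and -0.01 over all genes tested, and the median size of the log2 fold change was 0.15 against 0.29. For 32 genes the 95% interval of the fold change lay within 1.5-fold in either direction, and for 38 it lay within 2-fold, the exceptions being Tyms and Ccne1. These intervals are from voom with sample weights, where the closely alike wild-type replicates 2 and 3 had the largest weights (3.78 and 3.06). Intervals without either line are not given here, so their narrowness may rest on that pair.

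The calls differed between tests and with the lines included, and the share of all genes called moved with them. Voom alone, which treats all lines equally, called 0 of the 40 genes and 0.0975% of all genes, and the quasi-likelihood test of edgeR also called 0 of the 40 and 0.0975% of all. Each of these tests gave 4 of the 40 an unadjusted p under 0.05, against 1386 (voom alone) and 1416 (edgeR) of all 12303 genes. The lowest FDR among the 40 was 0.170 with voom alone and 0.201 with edgeR. Voom with block weights called Pcna and Kif11 (4.01% of all genes), as did DESeq2 (3.29%). Sample removal, without wild-type replicate 1 and Smchd1 null replicate 4, called Kif11 (4.23%). Without wild-type replicate 1, which leaves only batch 2, and without Smchd1 null replicate 4, the counts were 3 in both cases and covered the same 3 genes (13.7% and 11.2% of all genes). Without wild-type replicate 2, without wild-type replicate 3, or with those lines summed into 1, voom with sample weights called 0 of the 40, with 2, 1 and 2 of them at an unadjusted p under 0.05. In each of these settings it called 1 gene of all 12303, or 0.00813%, so the 0 is no result about the 40 genes. Of the 40, Pcna alone was called without Smchd1 null replicate 1 (3.60% of all genes) and Ccne1 alone without Smchd1 null replicate 2 (2.28%). Without Smchd1 null replicate 3, Cenpe was called beside the 3 (7.50%).

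**Figure D2:**
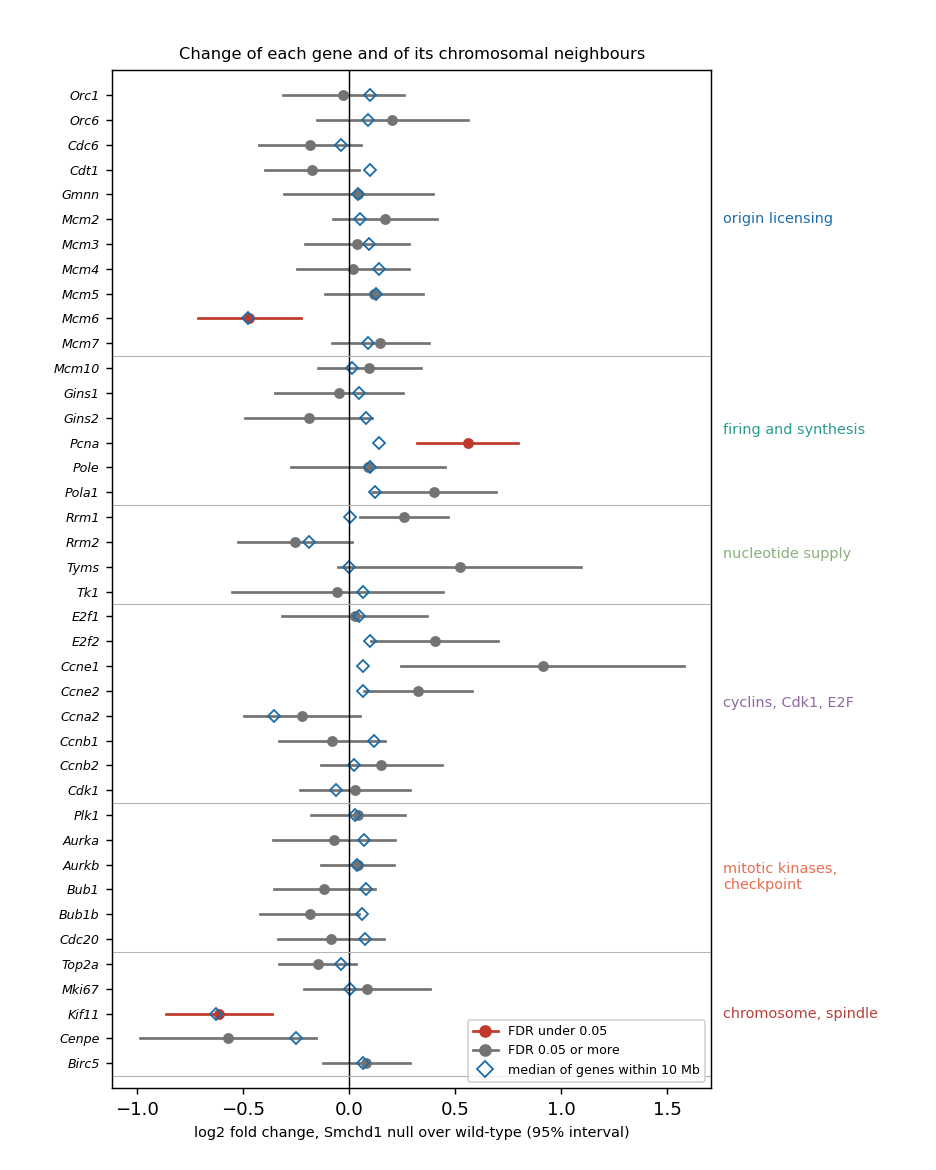
Log2 fold change of each of the 40 genes (filled circles, lines are 95% intervals) and the median log2 fold change of the genes tested within 10 Mb of it (open diamonds). Pcna, Mcm6 and Kif11 are in red. The diamonds of Mcm6 and Kif11 lie on their circles at -0.48 and -0.63, whereas that of Pcna lies at 0.14, left of its circle at 0.56.

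Licensing genes made up 11 of the 40, of which 1 fell, 0 rose and 10 were not called, with a median log2 fold change of 0.04. Mcm6, a subunit of the MCM ring, was at 675, 636 and 634 CPM in wild-type replicates 1 to 3. In Smchd1 null replicates 1 to 4 it was at 413, 432, 554 and 586 CPM. All 4 Smchd1 null lines were therefore below all 3 wild-type lines, with replicates 1 and 2 lowest. The means were 648 ± 22.9 CPM (SD, n = 3) against 496 ± 86.4 CPM (SD, n = 4) in the null. The log2 fold change of the fit, which weights each line by its sample weight, was -0.47 (standard error 0.11, limma FDR 0.0303). With voom alone it was -0.39.

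Each gene was also set beside its neighbours on the chromosome. Mcm6 lies on chromosome 1 (GRCm38, 128331575 to 128359705), and the 91 other genes tested within 10 Mb of it had a median log2 fold change of -0.48, with 28 called lower and 1 higher. Relative to that median, the change of Mcm6 was 0.01. Line by line the match was looser. Against the 7-line mean of log2 CPM, Mcm6 was at 0.24 in wild-type replicate 1, where its neighbours were at -0.20, and at 0.22 and 0.21 in wild-type replicates 2 and 3, where its neighbours were at 0.36 and 0.35. In Smchd1 null replicates 1 and 2 it was at -0.39 and -0.36, below neighbours at -0.14 and -0.15. In Smchd1 null replicates 3 and 4 it was at 0.02 and 0.05, above neighbours at -0.13 and -0.08. The part of the neighbourhood in the change of Mcm6 was not tested.

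The MCM ring needs its subunits in like amounts, so each subunit was also compared with the geometric mean of the other 5 within a library, per kilobase of gene length, a ratio that library scaling cannot alter. For Mcm6 this ratio was 1.88, 1.96 and 2.01 in wild-type lines and 1.24, 1.37, 1.35 and 1.502 in Smchd1 null lines. The Smchd1 null mean was 70.0% of the wild-type mean. Mcm6 thus stood above the geometric mean of the other subunits in every line, by less in each Smchd1 null line, although Mcm3 exceeded it in Smchd1 null replicates 1 and 3 (147 against 142 and 193 against 191 RPKM, CPM per kilobase). Mcm7 had ratios of 0.681 to 0.859 in wild-type and 0.890 to 0.981 in Smchd1 null lines. A fall in 1 subunit raises the ratio of the others, so these are not independent. The group means of the ratio in Smchd1 null lines were 103% to 108% of wild-type for Mcm2, Mcm3, Mcm4 and Mcm5. The comparison was chosen after the fold of Mcm6 was known and has no test.

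Other licensing genes gave no call. Mcm7 was at 239, 256 and 257 CPM in wild-type lines and at 258, 269, 338 and 332 CPM in Smchd1 null lines. The groups did not overlap, but the gap between them was narrow, and the log2 fold change of 0.15 (standard error 0.10) had a limma FDR of 0.353. Without Smchd1 null replicate 3 the value was 0.07, and without replicate 1 or 2 it was 0.27 or 0.28. Mcm7 shares its locus with Ap4m1 and a cluster of microRNA genes. Cdc6, which helps to load the MCM ring, was at 102, 84.3 and 82.7 CPM in wild-type and at 80.9, 66.3, 81.6 and 75.4 CPM in Smchd1 null lines. Its groups also stood just apart. The log2 fold change of the weighted fit was -0.18 (standard error 0.10, limma FDR 0.265), or -0.06 without Smchd1 null replicate 2. Orc1 and Orc6, subunits of the origin recognition complex, had log2 fold changes of -0.03 and 0.20. Cdt1, the partner of Cdc6 in loading, was at -0.18, and Gmnn, which inhibits Cdt1, was at 0.04. Mcm2, Mcm3, Mcm4 and Mcm5 had log2 fold changes of 0.17, 0.04, 0.02 and 0.12.

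Genes of origin firing and DNA synthesis numbered 6, of which 1 rose, 0 fell and 5 were not called. Pcna, the sliding clamp that holds polymerases on DNA, was at 171, 228 and 225 CPM in wild-type replicates 1 to 3. In Smchd1 null replicates 1 to 4 it was at 297, 326, 379 and 373 CPM. The groups were well apart, and the lowest wild-type level was in the batch 1 library. The means were 208 ± 31.95 CPM (SD, n = 3) against 344 ± 39.1 CPM (SD, n = 4) in the null. The log2 fold change of the fit, which weights each line by its sample weight, was 0.56 (standard error 0.10, limma FDR 0.0184). With voom alone it was 0.73. Pcna lies on chromosome 2 (132249286 to 132253180), and its 96 neighbours within 10 Mb had a median log2 fold change of 0.14, with 8 called higher and 1 lower. Relative to its neighbours the change of Pcna was 0.42. Across the other tests, settings and omitted lines, the log2 fold change ranged from 0.49 to 0.78 and its FDR from 0.00358 to 0.662.

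Pola1, the catalytic subunit of the polymerase that starts each new strand, was at 103, 94.3 and 84.0 CPM in wild-type and at 105, 111, 144 and 161 CPM in Smchd1 null lines. No wild-type line reached the lowest Smchd1 null line, and the log2 fold change of 0.40 (standard error 0.13) had a limma FDR of 0.0748. Pole, the catalytic subunit of the leading strand polymerase, had a log2 fold change of 0.09. Mcm10, which takes part in switching the helicase on, was at 0.09. Gins1 and Gins2, parts of the active helicase, had log2 fold changes of -0.05 and -0.19.

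None of the 4 nucleotide supply genes was called, with 1 of them at an unadjusted p under 0.05 in voom with sample weights and 0 in voom alone or edgeR. Of all 12303 genes tested, 3908, 1386 and 1416 were under 0.05 in these 3 tests. Rrm1, the large subunit of ribonucleotide reductase, was at 426, 473 and 462 CPM in wild-type and at 565, 532, 633 and 488 CPM in Smchd1 null lines. These ranges did not overlap, and the log2 fold change of the weighted fit was 0.26 (standard error 0.09, limma FDR 0.0967). Rrm2, the small subunit of the same enzyme, had a log2 fold change of -0.26 (limma FDR 0.177). Tyms, which makes thymidylate, was at 31.4, 14.3 and 16.9 CPM in wild-type and at 15.3, 25.2, 23.0 and 52.1 CPM in Smchd1 null lines. The ranges of Tyms overlapped, and its log2 fold change of 0.52 had the wide interval of -0.05 to 1.09 (limma FDR 0.193). Without wild-type replicate 2 or 3 it was 0.079 or 0.198. Tk1, which salvages thymidine, had a log2 fold change of -0.06.

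The cyclins, Cdk1 and the E2F genes gave 0 calls among 8, with 3 at an unadjusted p under 0.05 in voom with sample weights and 0 in voom alone or edgeR. The same 3 tests gave 3908, 1386 and 1416 such genes among all 12303. Ccne1, the cyclin E that drives entry into S phase, had the largest log2 fold change of the 40 genes, 0.91 (standard error 0.29, limma FDR 0.0755). It was at 76.4, 29.2 and 33.1 CPM in wild-type and at 90.04, 38.7, 71.4 and 86.3 CPM in Smchd1 null lines. Wild-type replicate 1 lay among the Smchd1 null lines, and Smchd1 null replicate 2 lay near wild-type replicates 2 and 3. Without Smchd1 null replicate 2 the log2 fold change was 1.32 and Ccne1 was called (limma FDR 0.0271). Without wild-type replicate 2 it was 0.33 (limma FDR 0.978), without wild-type replicate 3 it was 0.43, and with those lines summed it was 0.45. Ccne2, the second cyclin E, had a log2 fold change of 0.32 (limma FDR 0.0913) and E2f2, an activating E2F, 0.40 (limma FDR 0.0789). E2f1 was at 0.03. The mitotic partners showed values close to 0, with log2 fold changes of 0.03 for Cdk1, -0.08 for Ccnb1, 0.15 for Ccnb2 and -0.22 for Ccna2.

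No mitotic kinase or checkpoint gene was called, and all 6 had 95% intervals within 1.5-fold in voom with sample weights, with the limit on these intervals given above. None of them had an unadjusted p under 0.05 in voom with sample weights, voom alone or edgeR, against 3908, 1386 and 1416 of all 12303 genes. Aurkb, the kinase of the chromosomal passenger complex, had the steadiest level of the 40 genes, at 225, 216 and 218 CPM in wild-type and 224, 220, 230 and 217 CPM in Smchd1 null lines. Its highest line exceeded its lowest by a factor of 1.07. Bub1b, a spindle checkpoint protein, was at 467, 473 and 485 CPM in wild-type and at 463, 372, 465 and 441 CPM in Smchd1 null lines, so that the groups just failed to overlap (log2 fold change -0.19, limma FDR 0.245, and -0.05 without Smchd1 null replicate 2). Plk1 and Aurka, kinases of mitotic entry and spindle poles, had log2 fold changes of 0.04 and -0.07, Bub1, the partner kinase of the checkpoint, -0.12, and Cdc20, the activator of the anaphase-promoting complex, -0.09.

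Chromosome and spindle genes numbered 5, with 1 lower, 0 higher and 4 not called. Kif11, the motor that pushes spindle poles apart, was at 412, 477 and 548 CPM in wild-type replicates 1 to 3. In Smchd1 null replicates 1 to 4 it was at 327, 317, 370 and 297 CPM. Every Smchd1 null line was below every wild-type line. The means were 479 ± 67.9 CPM (SD, n = 3) against 328 ± 30.6 CPM (SD, n = 4) in the null. The log2 fold change of the fit, with each line weighted by its sample weight, was -0.62 (standard error 0.11, limma FDR 0.0156). With voom alone it was -0.54.

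Kif11 lies on chromosome 19 (37376382 to 37421863), where the 141 neighbours tested within 10 Mb had a median log2 fold change of -0.63, with 52 called lower and 0 higher. Relative to its neighbours the change of Kif11 was 0.01. Here the lines also ran alongside each other. Against the 7-line mean of log2 CPM, Kif11 was at 0.06, 0.33 and 0.53 in wild-type replicates 1 to 3 and its neighbours at -0.01, 0.37 and 0.56. In Smchd1 null replicates 1 to 4 Kif11 was at -0.20, -0.27, -0.03 and -0.40, and its neighbours at -0.10, -0.17, -0.19 and -0.33. The whole of chromosome 19 had a median log2 fold change of -0.56 over 432 genes. The part of the chromosome in the change of Kif11 was not tested.

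For Cenpe, a kinetochore motor, the log2 fold change of -0.57 had a standard error of 0.18 and a limma FDR of 0.0748. It was at 157, 217 and 202 CPM in wild-type and at 111, 126, 214 and 180 CPM in Smchd1 null lines, so that replicates 1 and 2 alone lay below the wild-type range. Its 60 neighbours on chromosome 3 had a median log2 fold change of -0.25. Without Smchd1 null replicate 3 it was called, at -0.76 (limma FDR 0.0251), and without Smchd1 null replicate 1 or 2 the value was -0.26 or -0.29. Without wild-type replicate 2 or 3 it was -0.31 or -0.37. Top2a, the topoisomerase that untangles sister chromatids, was at 1251, 1251 and 1306 CPM in wild-type and at 1073, 1210, 1178 and 1044 CPM in Smchd1 null lines. The groups of Top2a did not overlap, although the change was small (log2 fold change -0.15, standard error 0.08, limma FDR 0.236, and -0.09 without wild-type replicate 3). Mki67, the common marker of dividing cells, and Birc5, the survivin subunit of the passenger complex, both had log2 fold changes of 0.08.

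In all, 9 of the 40 genes had groups that did not overlap in CPM, 4 higher and 5 lower in Smchd1 null lines. That is 22.5%, against 13.2% of all genes tested, of which 6.35% were higher and 6.85% were lower. The 9 were Pcna, Pola1, Rrm1 and Mcm7 on the higher side and Mcm6, Kif11, Cdc6, Bub1b and Top2a on the lower side. The 40 genes were more highly expressed than most, with a median of 176 CPM against 31.4 CPM over all genes tested. Their median SD across the 7 lines was 0.22 on the log2 scale, against 0.28 over the 6920 genes tested whose median CPM lay in the same range and 0.38 over all genes tested. Among the 6920 genes, 13.1% were called.

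**Figure D3:**
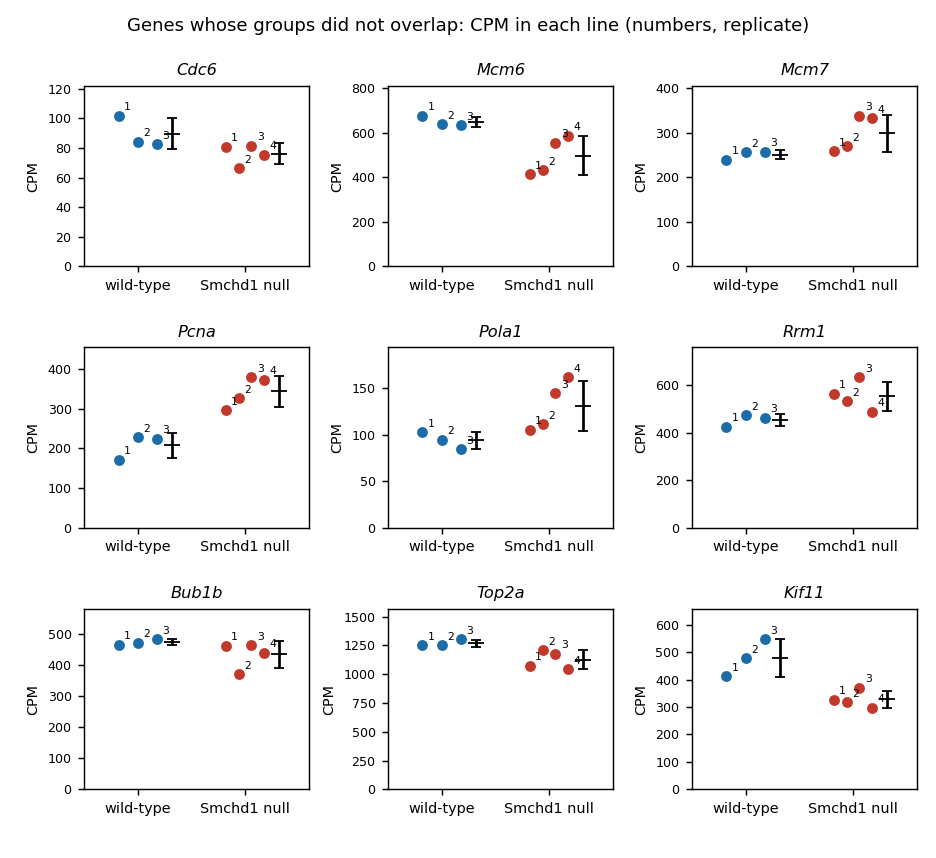
CPM in each line (points, labelled by replicate number) for the 9 genes whose groups did not overlap, with the mean and SD of each group beside the points. Pcna, Mcm6 and Kif11 show the widest gaps, whereas Mcm7, Bub1b, Cdc6, Pola1, Rrm1 and Top2a leave little room between the groups. Axes start at 0.

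Levels between genes were compared per kilobase of gene length (RPKM, CPM per kilobase). Pcna had the highest median over the 7 lines, 235 RPKM, followed by Top2a at 232, Mcm6 at 202, Ccna2 at 172 and Mcm3 at 157 RPKM. The ranges of these neighbours in the order overlapped, Pcna from 136 to 301 and Top2a from 200 to 250 RPKM, so their order is not fixed. The lowest were Ccne2 at 11.8, Orc1 at 11.7 and Tyms at 6.04 RPKM, and the median of the 40 was 75.7 RPKM. The smallest count behind any of these values was 87 (Tyms in wild-type replicate 2), which carries a counting error of 10.7%. In 35 of the 40 genes the highest line was under 2 times the lowest.

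**Figure D4:**
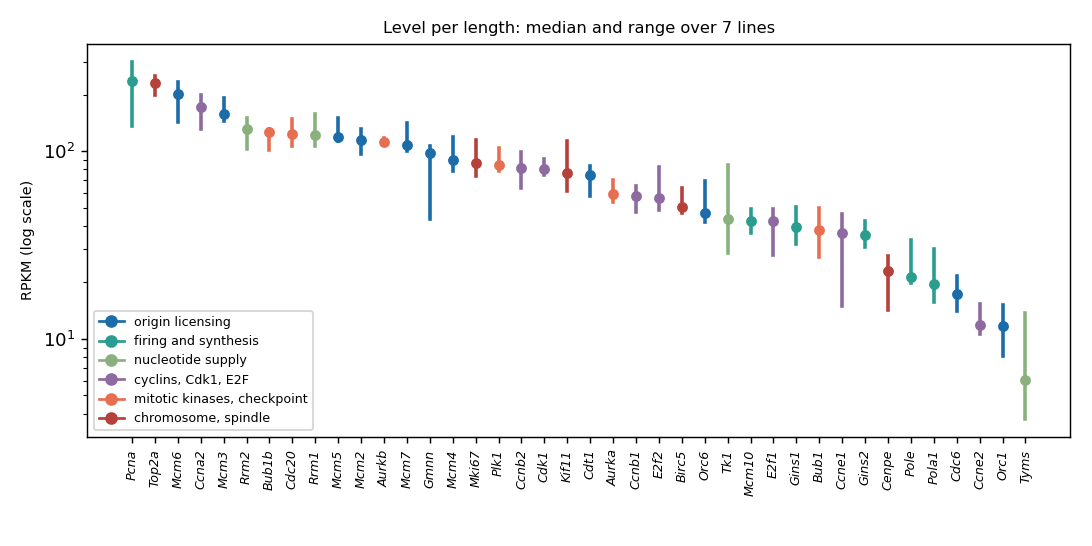
Median (point) and range (bar) over 7 lines of the level per length of each gene, in RPKM on a log axis, coloured by role and ordered by median. Levels run from 235 RPKM for Pcna to 6.04 RPKM for Tyms, and the bars of Tyms, Tk1, Ccne1, Gmnn and Pcna are the longest relative to their level.

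Line by line, the differences did not follow the groups. Smchd1 null replicate 3 was above the 7-line mean in 36 of the 40 genes, held the highest CPM in 13 and the lowest in 0. Its median deviation over the 40 genes was 0.19 on the log2 scale, against 0.02 over all genes tested. The 40 genes took 1.15% of its counts and between 0.946% and 1.05% in the other 6 lines. Smchd1 null replicate 2 was above the mean in 11 genes only, with a median deviation of -0.07. Wild-type replicate 1 held the highest level in 11 genes and Smchd1 null replicate 4 the lowest in 10. The Smchd1 null group thus held the line with the highest and the line with the lowest median deviation.

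**Figure D5:**
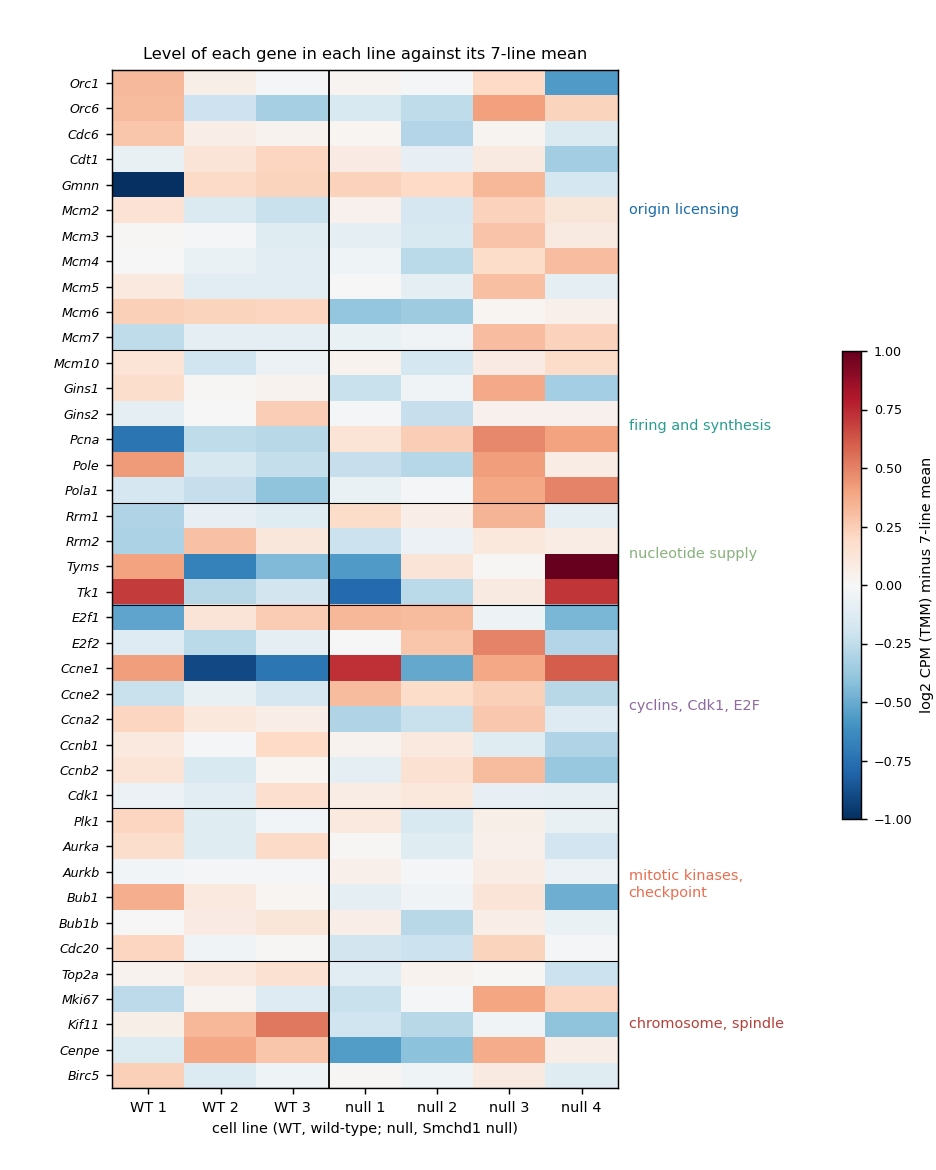
Log2 CPM (with TMM factors) of each gene in each line minus its mean over the 7 lines, grouped by role, with colours limited to 1 in either direction. Smchd1 null replicate 3 is mostly red, and the rows of Gmnn, Tyms, Tk1 and Ccne1 hold the strongest colours.

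The 5 genes whose highest line was 2 or more times the lowest were Tyms (3.65), Ccne1 (3.08), Tk1 (2.94), Gmnn (2.43) and Pcna (2.21). Tk1 was at 116, 56.1 and 59.9 CPM in wild-type and at 39.2, 57.2, 72.3 and 115 CPM in Smchd1 null lines. Its highest levels were thus in wild-type replicate 1 and Smchd1 null replicate 4, the lines with the smallest weights (0.246 and 0.249). Gmnn stood at 42.7 CPM in wild-type replicate 1, whereas its range over the other 6 lines was 75.5 to 104 CPM. On the log2 scale this was -1.01 from the 7-line mean, in a line where its neighbours on chromosome 13 were at -0.68. Ccnb1, also on chromosome 13, went the other way in that line, at 0.10 beside -0.56 for its own neighbours. Mcm4 on chromosome 16 was highest in Smchd1 null replicate 4, at 429 CPM, and its deviation there was 0.31 beside 0.40 for its neighbours. Ccna2 on chromosome 3 was lowest in Smchd1 null replicates 1 and 2, with deviations of -0.30 and -0.22 beside -0.31 and -0.44 for its neighbours. These genes were chosen after their values were seen, and the part of their chromosomes was not tested.

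The 40 genes lay on 16 chromosomes. The neighbour median was below -0.2 for 4 of them, Mcm6, Kif11, Ccna2 and Cenpe, and between -0.19 and 0.14 for the other 36. Ccna2 and Cenpe lie on chromosome 3, where the median over 555 genes was -0.44 and only Smchd1 null replicates 1 and 2 lay below the 7-line mean, at -0.38 and -0.41. Across the 40 genes, the log2 fold change and the neighbour median had a Pearson correlation of 0.61, or 0.45 without Mcm6 and Kif11. This is a description across genes that share the same 7 libraries and, in part, the same neighbours.

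A further 98 genes of replication, mitosis and E2F control, listed by function, gave a like picture. All passed the filter, and 3 rose, 5 fell and 90 were not called, or 8.16% called against 11.9% of all genes. Their median log2 fold change was 0.04. Of 41 further replication genes, 3 rose and 1 fell. The increases were in Cdc7, the kinase that fires origins, with a log2 fold change of 0.66 (limma FDR 0.0124), Pole4, a small subunit of polymerase epsilon, with 0.58 (limma FDR 0.0124), and Pold2, a subunit of polymerase delta, with 0.43 (limma FDR 0.0476). Cdc7 was at 57.3 to 78.0 CPM in wild-type and at 79.9 to 101 CPM in Smchd1 null lines, Pole4 at 46.05 to 54.0 and 68.6 to 80.7 CPM. Neither overlapped between groups, and their neighbour medians were both 0.06. Pold2 overlapped, at 134 to 207 and 152 to 216 CPM.

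Of 39 further mitosis genes, 3 fell and 0 rose. These were Cenpf, a kinetochore protein, with a log2 fold change of -0.81 (limma FDR 0.0134), Aspm, a spindle pole protein, with -0.66 (limma FDR 0.0197), and Incenp, the scaffold of the passenger complex, with -0.54 (limma FDR 0.0188). Incenp was at 347 to 483 CPM in wild-type and at 267 to 338 CPM in Smchd1 null lines, without overlap, whereas Cenpf and Aspm overlapped through wild-type replicate 1, at 136 and 129 CPM. Cenpf and Aspm lie on chromosome 1, with neighbour medians of -0.57 and -0.49, and Incenp lies on chromosome 19, with a neighbour median of -0.54. Of 18 further E2F and DREAM genes, 1 fell, Lin9 on chromosome 1, with a neighbour median of -0.52. The remaining decrease was in the replication gene Timeless on chromosome 10, whose neighbour median was -0.05. Both genes are outside the rule for naming and were singled out after their values were seen. Over both lists, 6 of the 7 genes that fell lay on chromosomes 1 or 19, and none of the 4 that rose did. On chromosome 1, 17.8% of the genes tested were called lower and on chromosome 19, 38.0%, against 6.85% of all genes. Voom alone called 0 of the 98 genes, with 13 at an unadjusted p under 0.05, and edgeR called 0, with 14. Of all 12303 genes tested, each called 0.0975%, with 1386 (voom alone) and 1416 (edgeR) at an unadjusted p under 0.05. Voom with sample weights also called 0 of the 98 without wild-type replicate 2 or without wild-type replicate 3, with 4 at an unadjusted p under 0.05 in each case and 1 gene called of all tested. It called 1 of the 98 without Smchd1 null replicate 1 and 1 without Smchd1 null replicate 2, where 443 and 281 of all genes were called.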

How the data were processed

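Per the labels and the study's methods, the authors made libraries from total RNA (TruSeq), sequenced them on a HiSeq instrument, aligned reads to mm10 with Subread and summarised them per gene with featureCounts. The deposited files held raw counts per Entrez gene, not normalised, with a gene length beside each count. Handling of multi-mapping reads and of strand was not given in the sources used here, so counts of genes with close copies or overlapping neighbours are uncertain. Symbols, positions and promoters came from RefSeq tables for GRCm38.p6, the build of mm10.

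The 12303 genes that reached 0.5 CPM in 3 samples entered the fit, TMM factors were applied (0.979 to 1.03), and voomWithQualityWeights, lmFit and eBayes in limma (version 3.58.1) compared 4 Smchd1 null with 3 wild-type samples over all genes, with Benjamini-Hochberg adjustment, as in the study's methods. Sample weights ranged from 0.246 to 3.78. R (version 4.3.3), edgeR (version 4.0.16) and DESeq2 (version 1.42.0) were used. The fitting code was tested on simulated data first, with a spread that was set and not taken from the real lines. There it recovered 14 of 67 genes with a true 1.5-fold change and 60 of 67 with a 2-fold change. Changes near 1.5-fold can thus be missed. Standard errors reflect the spread between lines as well as counting error. A level of 3 counts corresponds to 0.399 to 0.827 CPM.

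The 40 genes and all lists were chosen with earlier results of these data known. Values for every sample are given for genes that were called, whose groups did not overlap, or that had the 3 largest increases or decreases. Others named with values by sample (Aurkb, Tk1, Gmnn, Ccnb1, Mcm4, Ccna2) were chosen after their values were seen. The comparison with genes within 10 Mb, members left out, was added after seeing the data. Alternatives were other weightings, edgeR, DESeq2, RLE factors or library totals in place of TMM, other filters, omission of each sample, the replicate number as a block, batch as a covariate, summing of wild-type replicates 2 and 3, and an FDR threshold of 0.1.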

Additional observations from a re-analysis of the deposited data

Results flagged for a closer look

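In the Smchd1 null group, the CPM of each of the 40 genes was screened for a line that stood apart, by dividing the gap to its nearest line by the whole range. Chance flags about 1 in 20, or 2 of 40 genes, and 1 was found. Mcm5, a subunit of the MCM ring, reached 515.6 CPM in Smchd1 null replicate 3, whereas the other 3 ranged from 395 to 415 CPM, a gap of 0.834 of the range. The same line was above the 7-line mean in 36 of the 40 genes. The wild-type group, with 3 lines, was not screened.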

How the results depend on the processing

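Of the 40 replication and mitosis genes, 3 were called in voom with sample weights. The number was 0 with voom alone and 0 with edgeR (0.0975% of all genes each), and 1 after sample removal (4.23%). At an FDR threshold of 0.1 it was 9 (6 higher, 3 lower, or 22.5% against 22.7% of all genes). It was 0 with wild-type replicates 2 and 3 summed (1 of all genes), and from 0 to 4 when each sample was left out in turn (0.00813% to 13.7%). It was 2 to 4 under block weights, DESeq2, the other normalisations, the other filters and the batch covariate (3.29% to 16.1%). For the 98 further genes the count of 8 became 0 with voom alone, 0 with edgeR, 4 with block weights, 4 after sample removal, 2 with DESeq2, 13 with at least 10 counts in every sample, 16 at an FDR threshold of 0.1, 0 with the summed samples, and 0 to 10 when each sample was left out. Fewer samples are tested when any is left out or summed. For the other settings the cause was not tested. Among the 12 genes that the rule for values by sample named, the direction was the same under all 19 alternatives listed in the methods. That rule picked genes by their call, separation or fold in these same data. A constant direction was thus largely built in and is no independent check. Relative to the genes within 10 Mb, an alternative added after seeing the data, the decreases of Mcm6 and Kif11 turned to 0.00799 and 0.0136, values smaller than their standard errors. Depth limits the least expressed genes most: the smallest count, 87 for Tyms, carries a counting error of 10.7%.

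Samples share replicate numbers 1 to 3 across groups, but nothing in the labels says that a number marks a shared origin. Deviations from the group means correlated across genes at -0.15, 0.23 and -0.18 for the pairs numbered 1, 2 and 3. The value of 0.23 was the highest of any pair across the groups. Wild-type replicates 1 and 3 correlated best with Smchd1 null replicates 3 and 2 (0.19 and 0.20). Such deviations sum to 0 within each group, so these correlations constrain each other and cannot settle whether the numbers pair the samples. With the replicate block, 0 of the 40 and 0 of the 98 genes were called, against 1.8% of all genes, with 6 and 14 at an unadjusted p under 0.05.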

Other observations

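Among the E2F genes outside the 40, E2f7 and E2f5 stood apart between groups in opposite directions, without passing the threshold. E2f7, an atypical repressor E2F, was at 20.4, 22.5 and 17.001 CPM in wild-type and at 30.1, 29.2, 27.8 and 24.3 CPM in Smchd1 null lines (log2 fold change 0.54, limma FDR 0.0571). E2f5, a repressor E2F of the DREAM type, was at 33.1, 26.2 and 25.5 CPM in wild-type and at 19.7, 18.2, 21.0 and 20.2 CPM in Smchd1 null lines (log2 fold change -0.43, limma FDR 0.0506). Both were chosen after their values were seen. With voom alone the FDR was 0.384 for E2f7 and 0.335 for E2f5.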
